A study of Homo sapiens with 8 samples.

Results

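Cells of the Jurkat line, long established from a human acute leukaemia of T cells (T-ALL), were compared after 24 hours with dTAG-13 and GSI together and after 24 hours with DMSO, the solvent. The comparison used 4 of the 8 RNA-seq libraries of the study, 2 with the combined treatment and 2 with DMSO, and all 15646 genes, of 63677 listed, with enough reads to be tested. Every library came from TAL1-FKBP12 Jurkat cells, in which TAL1 carries the FKBP12 tag that dTAG-13 recognises, so the DMSO cells also held the tagged protein. The other 4 libraries, 2 with dTAG-13 alone and 2 with GSI alone, entered the same statistical model and are used below only to place the combined response. The labels give no doses. Whether the libraries of a group were made from separate cultures is not stated either, so a p-value here measures the spread between libraries, which may be technical only.

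GSI commonly stands for gamma-secretase inhibitor. Gamma-secretase makes the final cut that frees the intracellular part of NOTCH receptors, which then enters the nucleus, joins the DNA-binding protein RBPJ and switches on genes such as HES1, DTX1 and MYC. NOTCH1 is frequently mutated to an overactive form in T-ALL. TAL1 is a basic helix-loop-helix transcription factor, silent in most thymocytes and switched on in many T-ALL cases, that pairs with E proteins such as TCF3 and TCF12. dTAG-13 links an FKBP12-tagged protein to the cereblon ubiquitin ligase, and the tagged protein is then degraded. The combined treatment is therefore meant to act on both regulators in the same cells. Neither TAL1 protein nor NOTCH cleavage was measured in these libraries.

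HES1 and HES4 encode repressors of the basic helix-loop-helix class, and their transcripts were among those lowered most by the combined treatment. The 120 bases just before each gene's start are shown because both hold the core letters of the RBPJ motif, TGGGAA, printed in capitals. They are RefSeq sequences of build GRCh38.p14, written 5′ to 3′ on the strand of the gene, with HES1 at chr3:194136028-194136147 on the plus strand and HES4 at chr1:1000098-1000217 on the minus strand.
HES1: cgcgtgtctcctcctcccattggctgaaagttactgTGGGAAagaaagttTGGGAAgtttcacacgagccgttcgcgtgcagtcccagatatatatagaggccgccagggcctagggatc
HES4: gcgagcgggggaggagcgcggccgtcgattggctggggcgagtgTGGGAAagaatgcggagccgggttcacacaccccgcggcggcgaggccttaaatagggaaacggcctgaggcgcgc
In HES1 the letters begin 84 and 70 bases before the start, and in HES4 they begin 76 bases before it. The match at 84 bases in HES1 and that in HES4 lie within the longer form GTGGGAA. Over windows from 250 bases before to 50 bases after the start, searched on both strands, GTGGGAA was present in 6.28% of all 27305 promoters in the table. It was present in 5.64% of the 9575 that matched a tested gene by symbol, in 6 of the 83 matched to a gene that fell with the combined treatment (7.23%) and in 1 of the 54 matched to a gene that rose (1.85%). The shorter TGGGAA was present in 24.3% of all promoters and in 21.4% of those matched to a tested gene. Among genes that fell the share was 22.9%, and among genes that rose 11.1%. The windows of NOTCH3, RHOU and SH3TC1, which also fell, held no TGGGAA, while that of GIMAP5 held 1. A match is a description of letters only. For both forms the share among the genes that fell was close to that of all promoters.

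The 4 libraries compared held 17544319 to 21921662 counts each, of which 7.8% to 8.41% were mitochondrial. Between the 2 DMSO libraries the chi-square of the counts per degree of freedom was 4.45, and between the 2 combination libraries 12.6, both above the 1 that sampling alone gives, so no library was a copy of another. The 10 markers of T-ALL and T cells summed to 3360 to 3703 CPM (counts scaled to library size), and the 12 myeloid markers to 1.26 to 1.54 CPM. Sums of markers used each library's total count. CPM of single genes also used a normalisation factor (TMM), which was 0.988 to 1.04 in these 4 libraries. CSF1R, MPO, S100A8 and ELANE, defining myeloid genes, were at 0 in all 4 libraries. TAL1 transcript was measured at 154 and 166 CPM in DMSO and at 197 and 199 CPM with the combination (log2 change 0.31 ± 0.08 SE, adjusted p = 0.0924, edgeR quasi-likelihood test, n = 2 and 2). dTAG-13 acts on the protein, so a transcript level checks neither its action nor the labels. CRBN, the cereblon subunit that dTAG-13 uses, was at 54.5 and 52.8 CPM in DMSO and 52.1 and 52.6 CPM with the combination.

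With the combined treatment, the NOTCH readouts DTX1, HES1, HES4 and NOTCH3, 6 of 7 GIMAP GTPases, MYC and 2 members of the TNF ligand and receptor family were lower than in DMSO, while the recombinase genes RAG1 and RAG2, the T cell receptor segment TRAC and RASGRP1 were higher. In all, 205 genes passed an adjusted p of 0.05 in edgeR's quasi-likelihood test, with Benjamini-Hochberg adjustment over the 15646 genes (1.31%). Of these, 85 were higher (0.543%) and 120 were lower (0.767%). A change of at least 2-fold was called upward for 16 genes (0.102%) and downward for 41 (0.262%), so the large changes were mostly decreases. The median log2 fold change of all genes tested was 0.00, and 50.5% of them were positive. CPM values of the groups did not overlap in 42.1% of all genes, so separated groups alone say little with 2 libraries each. Log2 fold changes are given below with their SE from the model, and CPM for the libraries of a group in the order replicate 1, replicate 2.

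**Figure D1:**
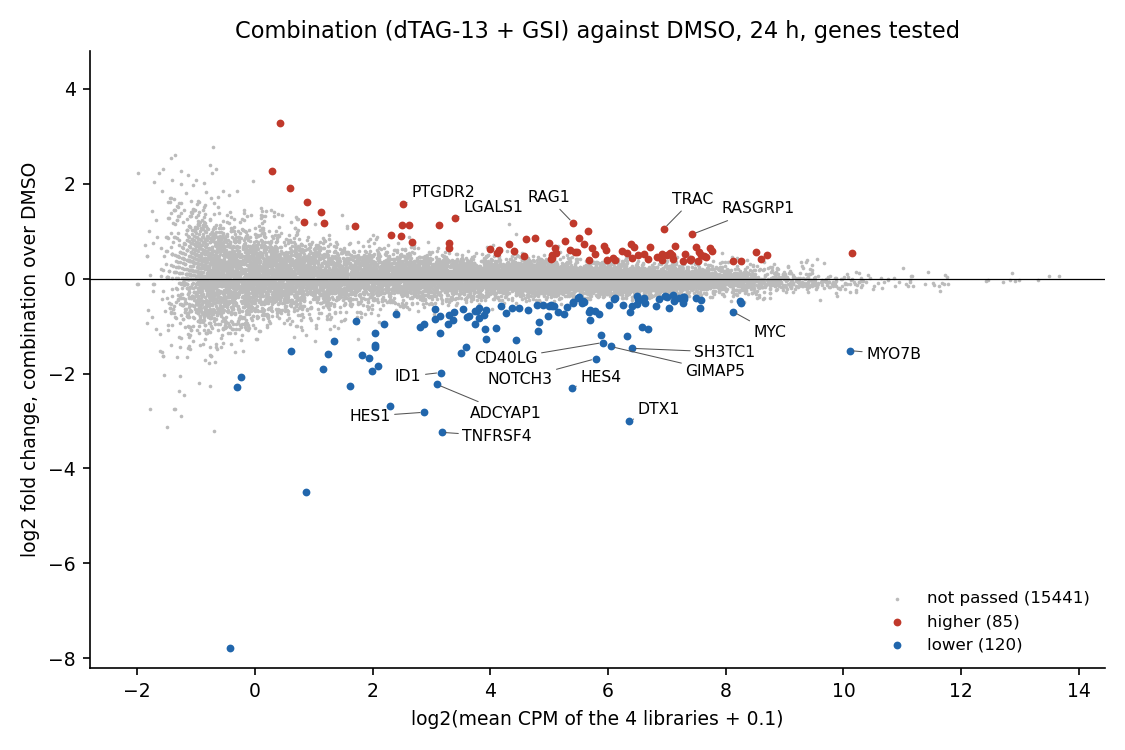
Each point is a gene tested, by its log2 mean CPM over the 4 libraries (horizontal, with 0.1 CPM added) and its log2 fold change of the combination over DMSO (vertical). The 85 genes that passed upward are red and the 120 that passed downward blue, and the lowest points among genes averaging 5 CPM or more are TNFRSF4, DTX1, HES1 and HES4.

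The repressors of the HES and HEY family and the ubiquitin ligase DTX1 (Deltex-1) are the classical direct readouts of NOTCH. DTX1 was at 138 and 154 CPM in DMSO and at 19.7 and 17.0 CPM with the combination. It fell by 2.99 ± 0.10 on the log2 scale, 7.95-fold (edgeR adjusted p = 1.93e-08), the lowest p of all genes tested. HES1 was at 12.7 CPM in both DMSO libraries and at 1.44 and 2.16 CPM with the combination. It fell by 2.82 ± 0.20 (adjusted p = 1.27e-05, edgeR), and both treated libraries lay far below both controls. HES4, another repressor of the family, went from 76.3 and 62.7 CPM to 15.4 and 12.8 CPM, a log2 change of -2.30 ± 0.18 (edgeR adjusted p = 2.29e-05). HEY2, a related repressor, went from 6.53 and 5.27 CPM to 3.07 and 2.97 CPM, a log2 change of -0.95 ± 0.18 (edgeR adjusted p = 0.0216). These 3 were the calls among 6 tested HES and HEY genes, whose median log2 change was -0.44. DTX1 was the only call among 11 tested Deltex, NRARP and cofactor genes. Over all genes, 0.767% were called lower. NRARP, a NOTCH feedback inhibitor, was too low to judge at 1.16 and 0.499 CPM in DMSO and 0.605 and 0.623 CPM with the combination. The call of HEY2 ended whichever 1 of the 4 libraries was left out (adjusted p up to 0.251), while those of DTX1, HES1 and HES4 passed in every fit without 1 library.

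NOTCH3, itself a receptor of the family and a known target of NOTCH1, was at 87.0 and 81.4 CPM in DMSO and at 31.1 and 21.0 CPM with the combination. It fell by 1.69 ± 0.15 on the log2 scale (edgeR adjusted p = 9.51e-05). It was the only call among 10 tested receptors, ligands and Fringe enzymes, against 0.767% lower calls over all genes. NOTCH1, the receptor that drives the pathway in T-ALL, was at 114 and 117 CPM in DMSO and at 134 and 124 CPM with the combination (log2 change 0.15 ± 0.08, adjusted p = 0.495). None of the 5 tested gamma-secretase subunits passed, with a median log2 change of 0.13. NOTCH3 was thus called and NOTCH1 was not, and the difference between them was not tested.

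Among 11 tested genes reported elsewhere as NOTCH1 targets, 7 fell and none rose, against 0.767% lower calls over all genes; the median log2 change of the list was -0.62. CR2, which encodes complement receptor 2, was at 3.52 and 3.13 CPM in DMSO and at 0.140 and 0.144 CPM with the combination (edgeR adjusted p = 3.33e-05). Those last levels rest on a handful of reads, so no fold is given. RHOU, an atypical small GTPase, went from 107 and 116 CPM to 51.0 and 45.8 CPM (log2 change -1.21 ± 0.09). IGF1R, the receptor for insulin-like growth factor 1, went from 122 and 133 CPM to 66.7 and 58.7 CPM (log2 change -1.02 ± 0.10). Both passed clearly, with edgeR adjusted p of 2.29e-05 for RHOU and 0.000228 for IGF1R. SHQ1, an assembly factor of small nucleolar ribonucleoproteins, fell by 0.62 ± 0.08 (adjusted p = 0.00188). LZTFL1, a regulator of ciliary protein traffic, fell by 0.51 ± 0.08 (adjusted p = 0.00962). IL7R, the interleukin-7 receptor alpha chain that supports thymocyte survival, went from 55.2 and 57.5 CPM to 41.9 and 38.3 CPM, a log2 change of -0.49 ± 0.10 (adjusted p = 0.0376). PTCRA, the invariant chain of the pre-T cell receptor, was at 3.93 and 4.27 CPM in DMSO and 2.84 and 1.82 CPM with the combination and did not pass (log2 change -0.81 ± 0.23, adjusted p = 0.131). The call of SHQ1 ended without DMSO replicate 2 (0.0563), that of LZTFL1 without any of DMSO replicate 1, DMSO replicate 2 and combination replicate 1 (up to 0.154), and that of IL7R without any 1 library (up to 0.418).

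MYC, the growth-promoting transcription factor that NOTCH1 drives in T-ALL, was at 349 and 340.1 CPM in DMSO and at 200.2 and 225 CPM with the combination. It fell by 0.70 ± 0.09 on the log2 scale, 1.62-fold (edgeR adjusted p = 0.00162), and still passed whichever library was left out (adjusted p up to 0.0448). MXD3, which competes with MYC for the shared partner MAX, rose from 29.3 and 27.1 CPM to 53.5 and 44.3 CPM (log2 change 0.80 ± 0.12, adjusted p = 0.00556). They were the 2 calls among 12 tested genes of the MYC, MAX and MXD network. Over all genes, 0.543% were called higher and 0.767% lower. Ribosome biogenesis genes, many of which MYC activates, showed small differences of 1 sign: all 30 tested had negative log2 changes, with a median of -0.32 and 3 calls. POLR1B, a subunit of RNA polymerase I, fell by 0.55 ± 0.09 (adjusted p = 0.0114), MYBBP1A, a nucleolar protein, by 0.52 ± 0.10 (0.0303) and UTP20, a processome component, by 0.42 ± 0.09 (0.0474). The size of the median depended on the library, since the median was -0.48 from DMSO replicate 1 to combination replicate 1 and -0.19 from DMSO replicate 2 to combination replicate 2. Of 26 cytosolic ribosomal protein genes none was called, and 25 had negative log2 changes with a median of -0.12. Their median was -0.33 for the former libraries and 0.07 for the latter. Setting libraries side by side by number is a description only. None of 26 genes of nucleotide, one-carbon and polyamine synthesis passed (median -0.18). The calls of POLR1B and MYBBP1A ended without DMSO replicate 1, DMSO replicate 2 or combination replicate 1 (up to 0.287 and 0.430), that of UTP20 without any 1 library (up to 0.509), and that of MXD3 without either DMSO library (up to 0.168).

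**Figure D2:**
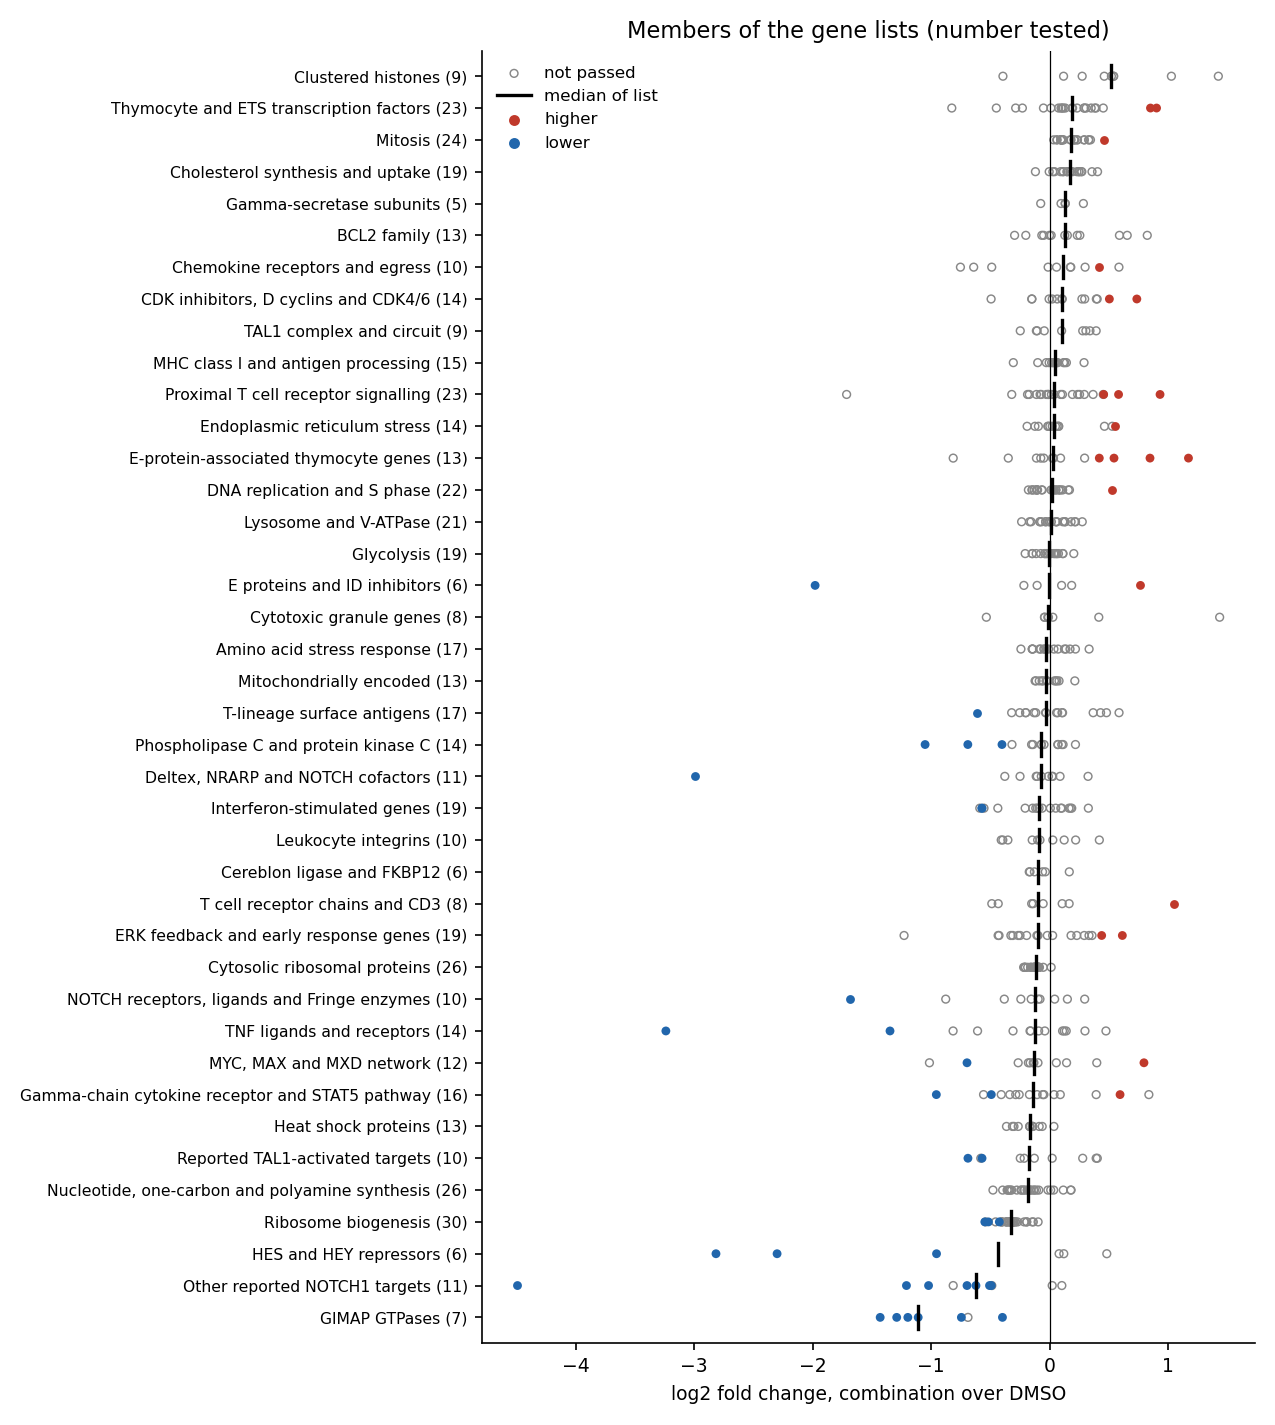
Each row is a gene list with the number of members tested, each circle a member at its log2 fold change of the combination over DMSO, and each black bar the list's median. Filled red and blue circles passed upward and downward. The GIMAP list has the lowest median (-1.11) and 6 of its 7 circles are blue, against 0.767% lower calls over all genes.

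GIMAP genes encode small GTPases that act in lymphocyte survival and sit side by side in the genome. Of the 7 tested, 6 fell with the combination, against 0.767% lower calls over all genes, and the median log2 change was -1.11. GIMAP5, whose loss shortens the life of T cells, was at 97.7 and 94.3 CPM in DMSO and at 34.3 and 37.0 CPM with the combination. It fell by 1.43 ± 0.09 on the log2 scale, 2.69-fold (edgeR adjusted p = 8.47e-06). GIMAP1, which mature lymphocytes also need, went from 31.1 and 30.2 CPM to 11.5 and 13.5 CPM (log2 change -1.29 ± 0.12). GIMAP4 went from 85.1 and 78.7 CPM to 37.6 and 33.9 CPM (-1.20 ± 0.09), and GIMAP7 from 39.0 and 37.4 CPM to 16.8 and 18.7 CPM (-1.11 ± 0.10). Adjusted p for these 3 were 0.000101, 2e-05 and 9.75e-05 in edgeR, and in each the treated libraries lay well below the controls. GIMAP6 fell by 0.74 ± 0.09 (adjusted p = 0.00109) and GIMAP2 by 0.40 ± 0.09 (0.0478). GIMAP8, the member without a call, was at 1.21 and 1.73 CPM in DMSO and 0.931 and 0.911 CPM with the combination. The call of GIMAP2 ended without any 1 library and in a fit of the 4 libraries alone, and those of the other 5 ended in none of these fits. GIMAP genes resemble one another, and reads that fit several of them could be split between members.

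In the TNF family 2 of 14 tested ligands and receptors fell, against 0.767% lower calls over all genes. TNFRSF4 (OX40), a costimulatory receptor of activated T cells, was at 16.6 and 15.6 CPM in DMSO and at 1.63 and 1.77 CPM with the combination. It fell by 3.24 ± 0.20 on the log2 scale, 9.44-fold (edgeR adjusted p = 4.92e-06). CD40LG, the ligand through which T cells help B cells, went from 88.8 and 84.3 CPM to 32.5 and 35.5 CPM, a fall of 1.35 ± 0.09 or 2.54-fold (edgeR adjusted p = 8.47e-06). Both passed in every fit without 1 library.

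Other large decreases by the rule for named genes were those of MYO7B, ADCYAP1, SH3TC1, GPR157 and RFX8. MYO7B, an unconventional myosin of brush borders, was at 1631 and 1634 CPM in DMSO and at 629 and 512 CPM with the combination (log2 change -1.52 ± 0.11, edgeR adjusted p = 1.27e-05). ADCYAP1, the precursor of the neuropeptide PACAP, went from 15.3 and 12.5 CPM to 3.30 and 2.59 CPM (-2.23 ± 0.17, edgeR adjusted p = 2.29e-05). SH3TC1, a protein with SH3 and tetratricopeptide repeats, went from 126 and 122 CPM to 46.2 and 43.5 CPM (-1.47 ± 0.09, edgeR adjusted p = 4.92e-06). All 3 passed whichever library was left out. GPR157, an orphan G protein-coupled receptor, fell by 1.44 ± 0.17 (adjusted p = 0.000832) and RFX8, of the RFX family of transcription factors, by 1.28 ± 0.13 (0.000308).

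**Figure D3:**
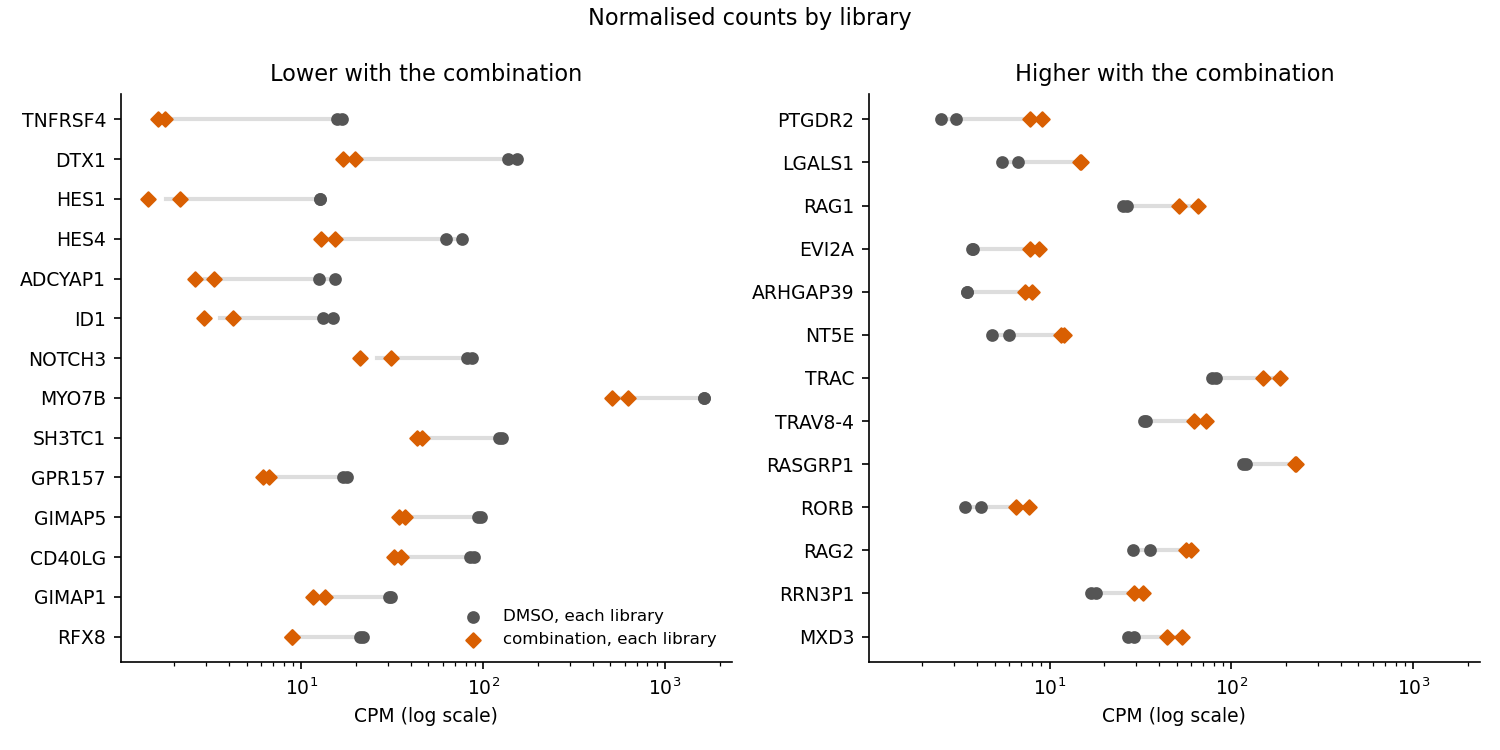
CPM of named genes with large changes in each library, DMSO against the combination, on a log scale, with a point per library. In the genes shown, both combination libraries lie on one side of both DMSO libraries, which was part of the rule that chose them.

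TAL1 opposes E proteins, and ID proteins bind and disable E proteins, so the genes of this axis were examined together. RAG1, the catalytic subunit of the V(D)J recombinase, was at 25.4 and 26.6 CPM in DMSO and at 65.6 and 51.5 CPM with the combination. It rose by 1.17 ± 0.13 on the log2 scale, 2.25-fold (edgeR adjusted p = 0.000637). RAG2, its partner, rose from 35.7 and 28.9 CPM to 59.6 and 56.4 CPM (0.85 ± 0.11, edgeR adjusted p = 0.00188). DNTT, the terminal transferase that adds bases at V(D)J joints, rose from 110.2 and 106 CPM to 167 and 148 CPM (0.54 ± 0.08, edgeR adjusted p = 0.00596). CXCR4, a chemokine receptor of thymocytes, went from 327 and 334 CPM to 459 and 425 CPM (0.42 ± 0.08, edgeR adjusted p = 0.0252). These 4 were the calls, all upward, among 13 tested thymocyte genes linked to E proteins, against 0.543% higher calls over all genes; the median of the 13 was 0.03, near that of all genes. ID1 fell from 13.2 and 14.9 CPM to 2.93 and 4.22 CPM (-1.98 ± 0.18, edgeR adjusted p = 9.51e-05), while ID2 rose from 4.68 and 4.59 CPM to 8.15 and 7.62 CPM (0.77 ± 0.15, edgeR adjusted p = 0.0231). The 2 ID inhibitors thus moved in opposite directions, and the other 4 genes of that list did not pass. With single drugs, ID1 was at 15.8 and 18.6 CPM with dTAG-13 and at 3.38 and 3.91 CPM with GSI, near its level with both. ID2 was at 7.19 and 7.92 CPM with dTAG-13 and at 7.60 and 7.48 CPM with GSI. RAG2 lost its call without DMSO replicate 2 (0.0694) and DNTT without either DMSO library (up to 0.188). CXCR4 and ID2 lost theirs without DMSO replicate 1, DMSO replicate 2 or combination replicate 1 (up to 0.327 and 0.318), CXCR4 also in a fit of the 4 libraries alone and ID2 under DESeq2.

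None of 9 tested genes of the TAL1 complex and its circuit passed (median log2 change 0.10). Of 10 reported TAL1-activated genes, 2 fell, against 0.767% lower calls over all genes. ALDH1A2, an enzyme that makes retinoic acid, went from 139.8 and 129 CPM to 98.1 and 82.7 CPM (-0.57 ± 0.11, edgeR adjusted p = 0.0208). SIX6, a homeobox factor, went from 70.3 and 65.4 CPM to 39.1 and 45.0 CPM (-0.69 ± 0.11, edgeR adjusted p = 0.00891). The median of the 10 was -0.17. Neither call held without DMSO replicate 1 or DMSO replicate 2, that of ALDH1A2 also not without combination replicate 2 and that of SIX6 not without combination replicate 1 (up to 0.264 and 0.146).

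Among the T cell receptor genes TRAC was higher with the combination. TRAC, the constant segment of the alpha chain, was at 82.8 and 78.1 CPM in DMSO and at 148 and 184 CPM with the combination. It rose by 1.05 ± 0.10 on the log2 scale, 2.07-fold (edgeR adjusted p = 0.000223). It was the only call among 8 tested receptor chain and CD3 genes, against 0.543% higher calls over all genes. The variable segment TRAV8-4 rose alongside, from 34.0 and 33.0 CPM to 62.0 and 72.4 CPM (1.005 ± 0.10, edgeR adjusted p = 0.00016). Among the weaker transcripts, TRAV16 was at 0.866 and 0.363 CPM in DMSO and 2.09 and 2.35 CPM with the combination (adjusted p = 0.0338). TRAV19 was at 1.04 and 0.999 CPM and at 2.28 and 2.40 CPM (adjusted p = 0.0473). CD3D, a signalling chain of the receptor, was at 383 and 360 CPM in DMSO and at 239 and 291 CPM with the combination and did not pass (-0.49 ± 0.14, adjusted p = 0.126). TRAC was thus called and CD3D, the lowest of the 8 by log2 change, was not, and the difference between them was not tested. Variable segments resemble one another and can share reads, and TRAV16 and TRAV19, named after their values were seen, lost their calls without any 1 library. TRAV19 also lost its call in a fit of the 4 libraries alone and under DESeq2.

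Of 23 tested genes of proximal T cell receptor signalling, 3 rose and none fell, against 0.543% higher calls over all genes, and the median was 0.04. RASGRP1, the exchange factor that loads RAS downstream of the receptor, was at 116 and 120.4 CPM in DMSO and at 228 and 224 CPM with the combination. Its rise of 0.93 ± 0.08, 1.91-fold (edgeR adjusted p = 3.66e-05), had the lowest p of all genes that rose. PTPRC (CD45), the phosphatase that activates LCK, rose from 176 and 174 CPM to 264 and 259.8 CPM (0.58 ± 0.08, edgeR adjusted p = 0.00412). SH2D1A (SAP), the adaptor of SLAM receptors, rose from 174.0 and 167 CPM to 236 and 233 CPM (0.46 ± 0.08, edgeR adjusted p = 0.0108). LCK itself was at 808 and 784 CPM in DMSO and at 671 and 729 CPM with the combination (-0.19 ± 0.09, adjusted p = 0.461). In a separate list, of the phospholipase C and protein kinase C families, 3 of 14 tested genes fell, against 0.767% lower calls over all genes. PRKCE, a calcium-independent protein kinase C, went from 22.8 and 22.9 CPM to 11.4 and 10.6 CPM (-1.05 ± 0.11, edgeR adjusted p = 0.000308). PLCB1, a phospholipase C coupled to G proteins, fell by 0.69 ± 0.15 (0.0402) and PRKCH, another protein kinase C, by 0.40 ± 0.08 (0.0338). CD7, an early T-lineage antigen, was the call among 17 tested surface antigens, going from 233 and 222 CPM to 139 and 158 CPM (-0.62 ± 0.10, edgeR adjusted p = 0.0101). RASGRP1 and PRKCE passed without any 1 library. PTPRC lost its call without either DMSO library (up to 0.134), and SH2D1A, PLCB1, PRKCH and CD7 lost theirs without DMSO replicate 1, DMSO replicate 2 or combination replicate 1 (up to 0.281, 0.350, 0.444 and 0.159). PRKCH also missed the threshold in a fit of the 4 libraries alone.

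Cytokine signalling genes moved in both directions, with 1 of 16 tested members higher and 2 lower. Over all genes, 0.543% were called higher and 0.767% lower. STAT5A, a transcription factor downstream of the interleukin-7 receptor, went from 12.4 and 13.2 CPM to 6.98 and 6.19 CPM (-0.96 ± 0.13, edgeR adjusted p = 0.00247). SOCS1, an inhibitor of cytokine receptor kinases, went from 15.5 and 12.7 CPM to 21.6 and 21.0 CPM (0.60 ± 0.13, edgeR adjusted p = 0.0491). IL7R, described above, was the other decrease. Without DMSO replicate 2 STAT5A missed the threshold (0.0694), and SOCS1 missed it without any 1 library (up to 0.549) and with DESeq2's size factors.

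Several regulators outside the lists above were also called, where 0.543% of all genes were called higher and 0.767% lower. RORB, a nuclear receptor, rose from 3.41 and 4.18 CPM to 7.73 and 6.57 CPM (0.90 ± 0.18, edgeR adjusted p = 0.029). DUSP1, a phosphatase of MAP kinases, and JUND, a subunit of AP-1, were the calls among 19 tested ERK feedback and early response genes, at 0.61 ± 0.13 (0.0376) and 0.44 ± 0.10 (0.0464). XBP1, the factor activated by endoplasmic reticulum stress, rose from 152 and 149.6 CPM to 210.3 and 232 CPM (0.55 ± 0.08, edgeR adjusted p = 0.00581), while none of the other 13 genes of that list passed. Among 19 tested interferon-stimulated genes 2 fell, IRF1, a transcription factor, by 0.57 ± 0.09 (0.00651) and OAS2, a sensor of double-stranded RNA, by 0.57 ± 0.09 (0.00993). XBP1 lost its call without either DMSO library (up to 0.168). RORB, IRF1 and OAS2 lost theirs without DMSO replicate 1, DMSO replicate 2 or combination replicate 1 (up to 0.314, 0.177 and 0.256), and DUSP1 and JUND without any 1 library (up to 0.394 and 0.531).

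The cell cycle lists held few calls. Over all genes, 0.543% were called higher. CDKN2D (p19-INK4d), which inhibits CDK4 and CDK6, rose from 35.9 and 36.5 CPM to 53.8 and 66.8 CPM (0.74 ± 0.11, edgeR adjusted p = 0.00581). CDKN2C (p18-INK4c), a second inhibitor of these kinases, went from 114 and 97.4 CPM to 153 and 147 CPM (0.51 ± 0.09, edgeR adjusted p = 0.0161). They were the 2 calls among 14 tested CDK inhibitors, D cyclins and their kinases. E2F2, a transcription factor of S phase entry, rose by 0.53 ± 0.10 (0.019), the call among 22 replication genes, whose median was 0.02. HMMR, a spindle protein, rose by 0.46 ± 0.07 (0.00934), the call among 24 mitosis genes; all 24 were positive, with a median of 0.18. The calls on all of these lists were upward. CDKN2D and HMMR lost their calls without either DMSO library (up to 0.134 and 0.196), CDKN2C without DMSO replicate 2 or combination replicate 1 (up to 0.368), and E2F2 without those or DMSO replicate 1 (up to 0.282).

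The largest increase by the rule for named genes was that of PTGDR2. PTGDR2 (CRTH2), a prostaglandin D2 receptor, was at 2.54 and 3.04 CPM in DMSO and at 7.77 and 9.06 CPM with the combination. Its rise of 1.58 ± 0.18, 2.99-fold (edgeR adjusted p = 0.000611), passed whichever library was left out. LGALS1, galectin-1, went from 6.70 and 5.49 CPM to 14.8 and 14.6 CPM (1.28 ± 0.18, edgeR adjusted p = 0.0032). NT5E (CD73), which makes adenosine from AMP, went from 4.85 and 5.95 CPM to 11.6 and 12.1 CPM (1.122 ± 0.15, edgeR adjusted p = 0.00247). EVI2A, a membrane protein encoded inside an intron of NF1, rose by 1.13 ± 0.16 (0.00313), and ARHGAP39, a GTPase-activating protein, by 1.124 ± 0.16 (0.00364). RRN3P1, a pseudogene copy of the RNA polymerase I factor RRN3 that may share its reads, rose by 0.83 ± 0.11 (0.00184). LGALS1 lost its call without DMSO replicate 2 (0.134), NT5E and RRN3P1 without DMSO replicate 1 (0.0601 and 0.0535), and EVI2A and ARHGAP39 without either DMSO library (up to 0.0959 and 0.0983). CD79A, a B cell receptor chain that Jurkat cells transcribe, rose by 0.54 ± 0.11 (0.0338) and lost its call without any 1 library (up to 0.468). The 10 B cell markers summed to 274 and 246 CPM in DMSO and to 339 and 370 CPM with the combination, with PAX5, the defining factor of B cells, at 0 in all 4 libraries. The part of these markers in the result was not tested.

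No member passed among the 13 tested BCL2 family genes, 10 leukocyte integrins, 8 cytotoxic granule genes, 15 genes of MHC class I and antigen processing, 21 lysosome genes, 19 glycolysis genes, 17 genes of the amino acid stress response and 13 heat shock genes. The same held for 19 cholesterol genes, of which 17 were positive (median 0.17), for 9 clustered histone genes (median 0.52) and for 13 mitochondrially encoded genes. Only 1.31% of all genes tested were called in either direction, so a list of this size without a call does not show that its genes were unchanged. The histone median rests on weakly measured transcripts, such as HIST1H2AC at 0.462 and 0.590 CPM in DMSO and 1.54 and 1.34 CPM with the combination (adjusted p = 0.0731).

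To see which of these changes differed from those with a single drug, the combination was tested directly against each. Against GSI alone, 9 genes passed (0.0575%), 3 higher (0.0192%) and 6 lower (0.0383%), and 648 (4.14%) had an unadjusted p under 0.05. Against dTAG-13 alone, 189 passed (1.21%), 100 higher (0.639%) and 89 lower (0.569%). The combination therefore differed from dTAG-13 in many more called genes than from GSI. Both tests share the combination libraries, so their calls are not independent of each other or of the comparison with DMSO.

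For the NOTCH readouts DTX1, HES4 and NOTCH3 the combination lay at or near the level with GSI alone. DTX1 was at 99.5 and 104 CPM with dTAG-13, 18.3 and 18.9 CPM with GSI and 19.7 and 17.0 CPM with both, a log2 difference from GSI of -0.02 (95% interval -0.25 to 0.21). HES4 was at 78.5 and 92.2 CPM with dTAG-13, 9.34 and 14.8 CPM with GSI and 15.4 and 12.8 CPM with both (difference 0.23, interval -0.19 to 0.65). For NOTCH3 the difference from GSI was 0.28 (interval -0.06 to 0.63), from 23.7 and 19.2 CPM with GSI. These intervals leave room for changes of the stated size and do not show that the levels were equal. HES1 was at 9.40 and 9.51 CPM with dTAG-13, 2.39 and 3.28 CPM with GSI and 1.44 and 2.16 CPM with both (difference -0.66, interval -1.17 to -0.14), and did not pass after adjustment. MYC was at 348 and 352 CPM with dTAG-13 and at 170.1 and 189.7 CPM with GSI, below the 200.2 and 225 CPM of the combination (difference 0.24, interval 0.05 to 0.43, not called after adjustment). The intervals are for single genes and carry no adjustment over genes.

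**Figure D4:**
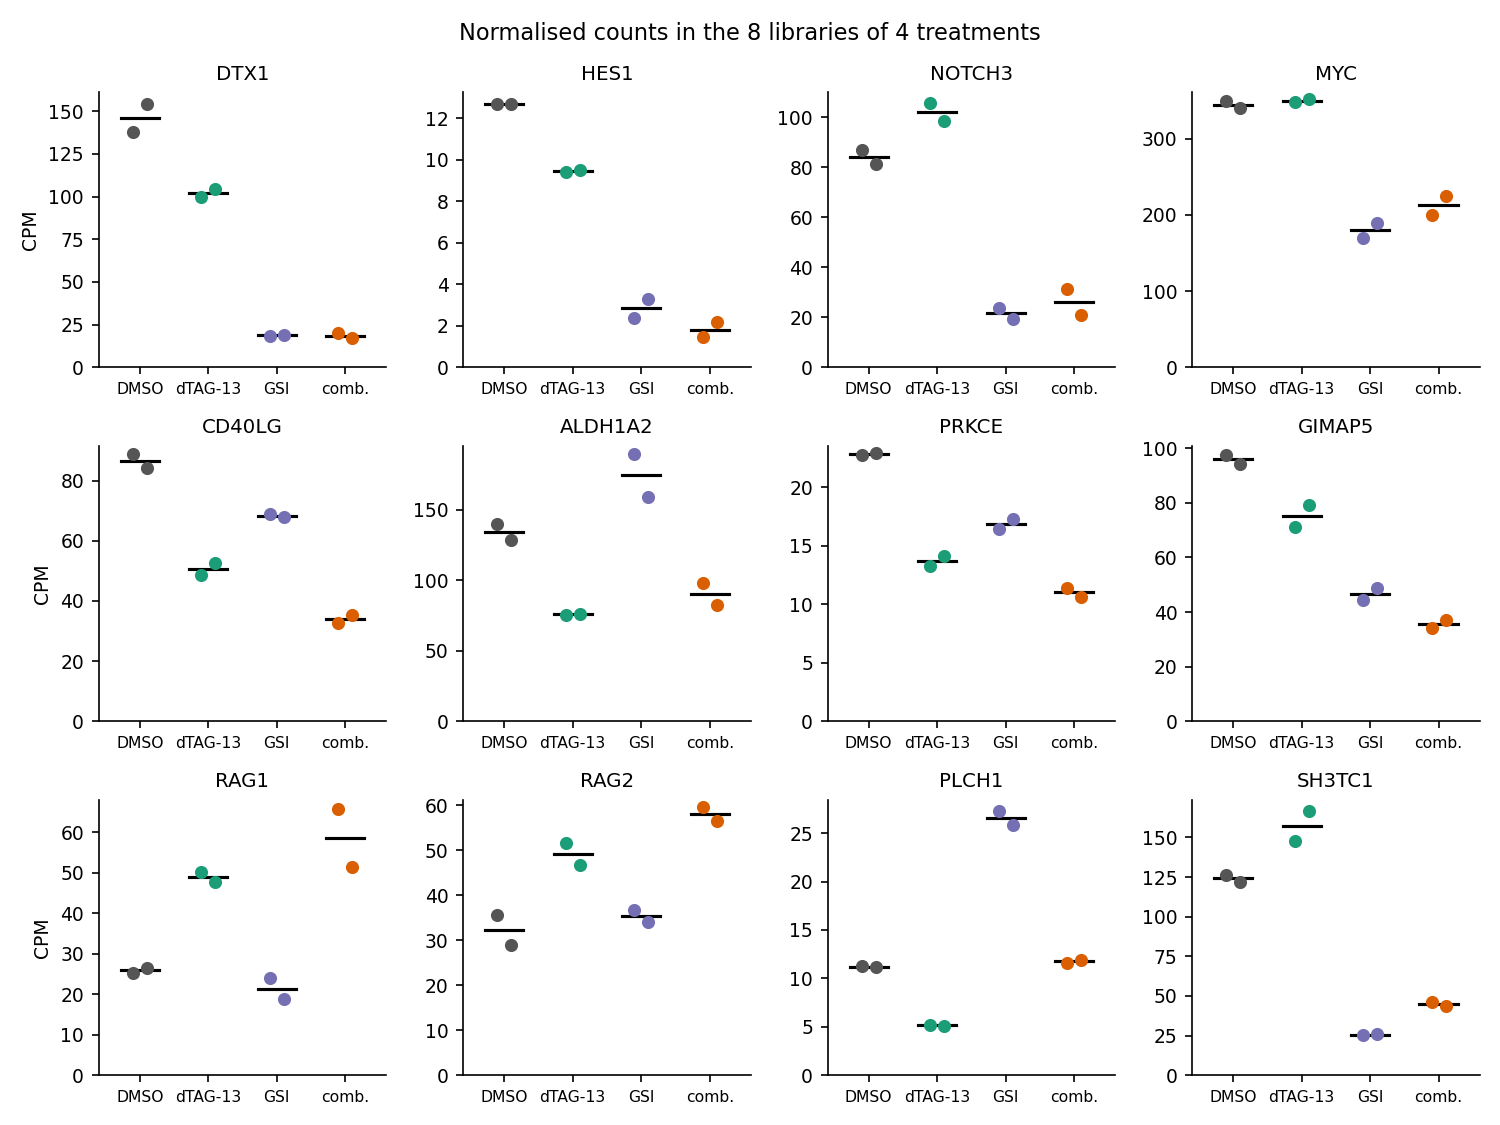
CPM of 12 genes in each library of the 4 groups, with a point per library and a bar at the mean of 2 (comb. is the combination). DTX1, HES1 and NOTCH3 are low in both groups with GSI, RAG1 and RAG2 are high in both groups with dTAG-13, and CD40LG and GIMAP5 are lowest in the combination.

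CD40LG and several GIMAP genes had their lowest measured levels with both drugs. CD40LG was at 48.5 and 52.5 CPM with dTAG-13, 68.9 and 67.8 CPM with GSI and 32.5 and 35.5 CPM with both. It was lower than with GSI by a log2 difference of -1.01 ± 0.09 (edgeR adjusted p = 0.000696) and lower than with dTAG-13 by -0.57 ± 0.09 (0.00772). It was the only gene among the 9 called against GSI that was also lower than with each single drug. GIMAP5 was at 71.3 and 79.2 CPM with dTAG-13, 44.3 and 48.7 CPM with GSI and 34.3 and 37.0 CPM with both. It differed from dTAG-13 (-1.08 ± 0.09, edgeR adjusted p = 6.63e-05) but not by this test from GSI (-0.38 ± 0.09, 0.394). GIMAP1 was at 21.5 and 20.2 CPM, 18.9 and 21.8 CPM and 11.5 and 13.5 CPM in the same order, with adjusted p of 0.0106 against dTAG-13 and 0.0898 against GSI. STAT5A stood at 8.48 and 8.62 CPM with dTAG-13, 10.6 and 10.9 CPM with GSI and 6.98 and 6.19 CPM with both. Its edgeR adjusted p was 0.106 against GSI and 0.254 against dTAG-13. PRKCE stood at 13.3 and 14.1 CPM, 16.5 and 17.3 CPM and 11.4 and 10.6 CPM in the same order. Its edgeR adjusted p was 0.0999 against GSI and 0.257 against dTAG-13.

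RAG1 and RAG2 were called higher than with GSI. RAG1 was at 50.1 and 47.8 CPM with dTAG-13, 24.0 and 18.8 CPM with GSI and 65.6 and 51.5 CPM with both, a log2 difference from GSI of 1.45 ± 0.13 (edgeR adjusted p = 0.000696). Against dTAG-13 it did not pass (0.26 ± 0.13, adjusted p = 0.418, 95% interval -0.02 to 0.54). RAG2 was at 51.5 and 46.6 CPM, 36.7 and 34.0 CPM and 59.6 and 56.4 CPM in that order (0.72 ± 0.11 against GSI, adjusted p = 0.0465). Against dTAG-13 the difference of RAG2 was 0.24 ± 0.11 (interval 0.01 to 0.48), also without a call after adjustment. RAG2 lost its call against GSI whichever library of the compared groups was left out (0.106 to 0.268) and in a model of the GSI and combination libraries only (0.117).

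Some genes lay between the single drugs. PLCH1, a phospholipase C, was at 11.3 and 11.1 CPM in DMSO, 5.21 and 5.13 CPM with dTAG-13, 27.3 and 25.9 CPM with GSI and 11.5 and 11.9 CPM with both. The combination was below GSI (-1.18 ± 0.11, edgeR adjusted p = 0.000696) and above dTAG-13 (1.18 ± 0.12, 0.000414), and its log2 difference from DMSO was 0.07 ± 0.11 (0.873). PLCH1 thus lay near its DMSO level while differing from each single drug. ETV5, an ETS factor of ERK feedback, showed the same order at 7.33 and 6.31 CPM, 4.05 and 3.36 CPM, 15.8 and 13.4 CPM and 9.91 and 6.71 CPM, and passed against dTAG-13 only (1.17 ± 0.21, 0.0178). PTCRA was at 8.52 and 10.2 CPM with dTAG-13, 1.27 and 1.45 CPM with GSI and 2.84 and 1.82 CPM with both (-2.001 ± 0.21 against dTAG-13, edgeR adjusted p = 0.000399). SH3TC1 was at 148 and 167 CPM with dTAG-13, 25.3 and 25.9 CPM with GSI and 46.2 and 43.5 CPM with both, above GSI by 0.81 ± 0.09 (edgeR adjusted p = 0.00397). ALDH1A2 was at 75.5 and 76.3 CPM with dTAG-13, 189 and 159 CPM with GSI and 98.1 and 82.7 CPM with both, below GSI by 0.95 ± 0.11 on the log2 scale (edgeR adjusted p = 0.00397). GZMA, granzyme A, and KRT1, a keratin, were also lower than with GSI, with log2 differences of -1.11 ± 0.16 (0.0284) and -1.08 ± 0.14 (0.0104). GZMA lost its call whichever library was left out (0.0935 to 0.156) and KRT1 in 2 of those fits (up to 0.112). In a fit of the GSI and combination libraries alone, adjusted p was 0.0672 for ALDH1A2, 0.0887 for SH3TC1 and KRT1 and 0.0991 for GZMA, and none of these passed. The remaining call against GSI was the clone-named RP5-1028K7.2, at a log2 difference of -1.10.

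Whether the joint change equalled the single changes added together, on the log2 scale, was tested for every gene. None was called for a departure from that sum in edgeR (0%), which does not show that the changes added up. An unadjusted p under 0.05 was found for 260 genes (1.66%) in edgeR, a smaller share than that threshold allows with no departures. In DESeq2 it was found for 76 genes, and none was called. Without DMSO replicate 1 a single gene passed, the clone-named AC079949.1, named after its value was seen. The intervals of the departure show what size could have gone undetected. For CD40LG the departure was -0.23 (95% interval -0.50 to 0.04), for GIMAP5 -0.03 (-0.32 to 0.25), for PLCH1 -0.06 (-0.43 to 0.30) and for MYC 0.22 (-0.05 to 0.49). Some named genes had an unadjusted interval that did not contain 0. Examples picked after their values were seen are DTX1 (0.50, interval 0.19 to 0.81), SH3TC1 (0.47, 0.20 to 0.74), RAG1 (0.54, 0.13 to 0.95) ID2 (-0.64, -1.07 to -0.21) and HIST1H2AC (-1.54, -2.50 to -0.58), and none of them passed after adjustment.

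In the authors' deposited table of the combination against DMSO, 12726 genes have an adjusted p, and 80 are higher and 113 lower at the same threshold. Of the 205 calls here, 158 are also called there in the same direction, which is 77.1% of the 205 and 81.9% of the calls in the authors' deposited table. Both come from the same libraries, so the overlap shows how far the calls depend on the method and is no independent evidence. Some lists without a call here hold calls there. RUNX1 of the TAL1 circuit and HMGCS1 and INSIG1 of the cholesterol genes are called higher there. ADSL and CAD of nucleotide synthesis are called lower there.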

How the data were processed

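Total RNA of 8 libraries, 2 for each of 4 groups, had been sequenced as strand-specific paired reads of 100 bases, per the labels' protocols. Per the submitters' processing notes, STAR 2.5.2a, featureCounts, DESeq2 1.12.4 and hg19 were used. The authors deposited integer counts per gene and library. The authors' deposited table of the combination against DMSO holds log2 fold changes, a score (fold change over its error), p-values and a mean normalised signal. It was used only to compare calls. The strand setting of the counting is not given in the sources used here, nor is the annotation, and overlapping genes and near copies are therefore uncertain.

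Genes kept by filterByExpr were scaled by TMM and fitted in edgeR 4.0.16 (R 4.3.3) as 4 groups over all 8 libraries, with 4 residual degrees of freedom, robust dispersion and 2-sided quasi-likelihood F-tests, adjusted by Benjamini-Hochberg at 0.05. The common biological coefficient of variation was 0.0804. The SE of a log2 fold change is its size over the square root of F, and 95% intervals use it. In a fit without 1 library, the remaining library of that group was assumed to vary like the other groups. DESeq2 was version 1.42.0. The scripts were tested on simulated data.

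Named genes are the 14 highest and 14 lowest calls with a symbol, a mean of at least 5 CPM and groups that do not overlap, up to 4 calls per direction of each gene list (2 genes where none passed), up to 5 per direction in the other comparisons, and fixed genes such as TAL1, NOTCH1 and MYC. SHQ1, LZTFL1, GIMAP2, GIMAP6, GIMAP8, NRARP, LCK and CD3D were added to show the rest of their lists. The members and lists were chosen with earlier results of these data known. A result that needs a withheld item is not reported here. Promoter sequences were matched by symbol, and no coordinates of the counted genes are given, since the counts used another build.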

Additional observations from a re-analysis of the deposited data

How the results depend on the processing

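With 2 libraries per group, the counts of calls changed when 1 library was left out. Such a fit also leaves that group without a replicate, so a lost call need not mean that the size of the change differed. Against DMSO, leaving out 1 library gave 9 to 103 higher and 29 to 155 lower genes in place of 85 and 120. Of 62 named calls, 26 passed in every setting tried; 32 were lost without DMSO replicate 1, 34 without DMSO replicate 2, 21 without combination replicate 1 and 8 without combination replicate 2. Of all 205 calls, 35 passed in all 9 settings, 7 higher and 28 lower. No named gene reversed. Testing every gene with no filter on low counts gave 244 higher and 288 lower against DMSO, 14 and 45 against GSI, and 264 and 299 against dTAG-13. DESeq2 gave 97 and 136 against DMSO and 5 and 15 against GSI. A fit of the compared libraries alone gave 1 and 2 against GSI and 47 and 49 against dTAG-13. Leaving out 1 library gave 2 to 3 higher and 3 to 5 lower genes against GSI and 14 to 118 and 29 to 146 against dTAG-13. The departure from the sum had 0 to 1 lower genes without 1 library. The cause of these differences was not tested.

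The labels give the same replicate numbers in each group, but do not say that a number marks a shared batch, and the numbers were not taken to pair the samples: the difference of replicate 1 from replicate 2 correlated across genes at -0.04 between DMSO and the combination, at -0.11 between DMSO and GSI, at -0.03 between DMSO and dTAG-13, and at 0.14 to 0.21 between the treated groups. With a replicate block, 182 genes were higher and 231 lower against DMSO, 6 and 28 against GSI, and 241 and 235 against dTAG-13; it ended none of the 62 named calls and gave no call for the departure. The smallest called log2 change was 0.34, which sets no limit of detection.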

Other observations

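Some of the genes called against DMSO lie next to each other in gene order. RefSeq names matched 12283 tested genes and 188 of the calls by symbol, and among the matched genes 16 adjacent pairs were called in the same direction. RAG1 and RAG2, and EVI2A and EVI2B, rose as pairs. The call of EVI2B (0.65 ± 0.14, edgeR adjusted p = 0.0474) ended without DMSO replicate 1, DMSO replicate 2 or combination replicate 2, in a fit of the 4 libraries alone and under DESeq2 (up to 0.398). DTX1 fell together with OAS2 on one side and RASAL1, a RAS GTPase-activating protein, on the other. RASAL1 was at 6.29 and 5.45 CPM in DMSO and at 2.93 and 1.34 CPM with the combination (log2 change -1.44 ± 0.30, edgeR adjusted p = 0.0382), and its call ended without DMSO replicate 1, DMSO replicate 2 or combination replicate 2 (up to 0.305). CR2 fell with its neighbour CD55, another complement regulator, which went from 8.89 and 9.49 CPM to 4.05 and 5.03 CPM (-1.02 ± 0.15, adjusted p = 0.00557). The call of CD55 ended without DMSO replicate 1, DMSO replicate 2 or combination replicate 1 (up to 0.133). The GIMAP genes gave 5 of the 16 pairs. How many such pairs chance would give was not tested.

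Calls outside the rule for named genes, picked after their values were seen, include 3 that passed in every setting. PHEX, a membrane endopeptidase, was at 0.289 and 0.182 CPM in DMSO, 1.06 and 0.932 CPM with dTAG-13, 1.55 and 1.30 CPM with GSI and 2.42 and 2.11 CPM with both (adjusted p = 0.000767 against DMSO, edgeR). ENPP1, an ectonucleotide pyrophosphatase, was at 4.45 and 5.31 CPM in DMSO, 2.58 and 1.96 CPM with dTAG-13, 2.49 and 2.36 CPM with GSI and 1.16 and 0.863 CPM with both (log2 change -2.27 ± 0.25, edgeR adjusted p = 0.000499). In these 2 genes each single drug gave an intermediate level. EFEMP1, an extracellular matrix protein, was at 139.2 and 138.6 CPM in DMSO, 126 and 130.1 CPM with dTAG-13, 69.7 and 66.1 CPM with GSI and 66.4 and 66.0 CPM with both (-1.07 ± 0.08, edgeR adjusted p = 1.59e-05).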
